A study of Rattus norvegicus with 39 samples.

Results

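Calorie restriction (CR) was compared with ad libitum feeding (AL) in cerebral cortex of rats at 6 months of age. The comparison used 6 of the 39 libraries of the series, the 3 labelled 6 months ad libitum (pools 1, 2 and 3) and the 3 labelled 6 months calorie restriction (pools 10, 11 and 12), and they were chosen by label alone. Each library was made from ribodepleted total RNA of 2 male BN rats (substrain BN/SsNOlaHSD), so the spread between libraries is a spread between pools and not between single animals. All of these rats ate the same unsupplemented CRM diet freely until 2 months of age. They were then housed singly and assigned at random to a diet. The AL rats kept free access to food. The CR rats received 55% of the intake of controls as a weighed morning ration for the remaining 4 months, and none of the 6 pools had lipoic acid. The question was which cortical transcripts differ after the first months of restriction, in young adult animals.

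Calorie restriction lowers food intake without malnutrition and is known to lengthen lifespan in rodents. In brain it has been studied for its link with mitochondrial respiration, protein synthesis and synaptic activity. Cytosolic ribosomal proteins build the 2 subunits of the ribosome, the nuclear oxidative phosphorylation genes encode most subunits of the respiratory chain and of ATP synthase, and scaffold proteins such as Shank1 and Shank3 hold receptors in place under the postsynaptic membrane of excitatory synapses.

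The 6 libraries held between 2661799 and 4270620 reads on genes. All pairs of pools within a group differed by more than counting noise (chi-square per degree of freedom 8.65 to 45.5). Several libraries stood apart. AL pool 2 had a summed level of 865 CPM (counts scaled to library size, over all 39 libraries) over 6 cerebellar markers, against 72.9 to 96.0 in the other 5 pools. CR pool 12 had 36000 CPM of 28S ribosomal RNA (Rn28s), against 2200 to 16400 in the others, and the lowest was CR pool 11. AL pool 1 was highest for the striatal marker Pde10a, at 225 CPM against 40.9 to 77.1. Thalamic markers were high in AL pool 3 and in CR pools 10 and 12 (335 to 504 CPM) and low in the other 3 (108 to 185). The share of reads that did not align was 32.1%, 29.1% and 31.3% in the AL pools and 40.2%, 40.2% and 40.8% in the CR pools, with no overlap (exact two-sided permutation test, p = 0.1, the smallest that 3 against 3 allows). The part of these differences in the results that follow was not tested.

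In 6-month-old cortex, 379 of the 17230 genes tested (2.2%) differed between the diets. Of these, 182 (1.06%) were higher and 197 (1.14%) were lower in CR (edgeR quasi-likelihood test, Benjamini-Hochberg adjusted p under 0.05). Genes higher in CR were led by ribosomal proteins, respiratory chain subunits, and the calmodulin-binding protein gene Pcp4. Genes lower in CR were led by the postsynaptic scaffold gene Shank1, the presynaptic scaffold gene Bsn and the histone methyltransferase gene Mll2. The called log2 fold changes had a median size of 1.04 and were never smaller than 0.63. The median of all genes tested was −0.01. AL and CR pools did not overlap for 376 of the 379 genes, and for 19.3% of all genes tested. Separate pools were also a condition for the choice of leading genes, so the separation of single genes below is no further support. At an unadjusted p under 0.05 there were 2440 genes.

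The number of calls changed when single pools were left out. It was 400 without AL pool 1, 150 without AL pool 2, 573 without AL pool 3, 170 without CR pool 10, 153 without CR pool 11 and 67 without CR pool 12. When pools 2 and 12, the pair with high cerebellar markers and high 28S RNA, were both left out, edgeR called no gene (1270 at an unadjusted p under 0.05) and DESeq2 called 59. That left 2 pools per group, and no other pair of pools was left out. An effect of these pools and one of having fewer pools cannot be told apart. All of the 30 leading genes, the 15 per direction with a symbol, separate pools and the smallest p, passed the threshold in each of the 6 fits that left out 1 pool. They were chosen in the fit of all 6 pools, and the fits that left out 1 pool reuse the same libraries. Their passing is thus no independent support.

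**Figure D1:**
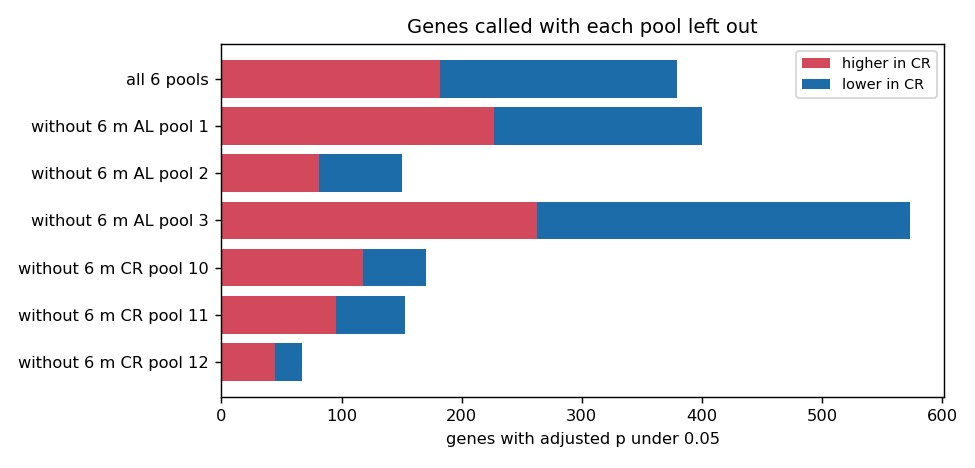
Genes with an adjusted p under 0.05 (x axis, number of genes) in the fit of all 6 pools and in the 6 fits that leave out 1 pool, split by direction in CR. The bar is 379 genes long with all pools and 67 without CR pool 12.

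Identifiers were given a symbol where the tables of the study give one, which was so for 1673 of the tested genes. Those tables list genes that the study found changed with age or diet, in part from these same libraries, so the named genes are not a neutral sample. Of the 1673, 212 (12.7%) were called, 119 higher and 93 lower, which is the share to hold beside the counts of the gene lists. Leaving out the 277 names that come from comparisons with age, which used libraries of 6 months, 149 of 1396 (10.7%) were called. A further 167 called genes had no symbol, 63 higher and 104 lower. Among genes whose type was given, 12 of 60 pseudogenes were higher and 0 lower, and of 10 mitochondrial transfer RNA genes 3 were higher and 3 lower. The mitochondrial transfer RNA gene ENSRNOG00000032274 rose from a mean of 47.4 to 472 CPM (log2 fold change 3.30), and another, ENSRNOG00000030339, fell from 180.0 to 48.4 CPM (−1.89).

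Ribosomal proteins were the largest group of genes that were higher in CR. Of 61 identifiers tested for 42 of the 76 symbols in the list, 37 (60.7%) rose, 1 fell and 23 did not pass, and the median log2 fold change was 0.99 (all genes tested, −0.01; all named genes, −0.02). Both subunits took part. Of the 39 identifiers of the large subunit 22 rose (median 0.95), and of the 22 of the small subunit 15 rose (median 1.07). The summed level of the list was 3390, 3190 and 3510 CPM in the AL pools and 4610, 4950 and 5070 CPM in the CR pools. The CR mean was 1.45 times that of AL (exact permutation test, p = 0.1). The count of 37 was 23 without AL pool 2, 24 without CR pool 11, 12 without CR pool 12 and 0 without both pools 2 and 12. In bulk tissue, fewer cells of a type and less RNA per cell cannot be told apart.

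The ribosomal protein with the smallest p was RPL38, a component of the large subunit, at identifier ENSRNOG00000048701. It was at 15.4, 15.6 and 17.8 CPM in the AL pools and at 60.3, 64.7 and 94.4 CPM in the CR pools, so that the lowest CR pool was more than 3 times the highest AL pool. Its log2 fold change was 2.14 (standard error, SE, 0.223, adjusted p = 0.000165). Of the other 4 identifiers under this symbol, 3 rose by 1.33 to 1.82 on the log2 scale, and ENSRNOG00000033686 had a log2 fold change of 1.07 and did not pass (adjusted p = 0.0686). Reads that matched more than 1 place had been dropped, so near-identical copies share the signal in a way the counts do not show. There were 13 ribosomal symbols with more than 1 identifier (32 identifiers in all), and among the 29 symbols with a single identifier 18 rose.

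Rps26, of the small subunit, was at 6.39, 12.6 and 16.4 CPM in AL and at 42.0, 43.3 and 58.0 CPM in CR. Rpl35 was at 21.1, 27.9 and 34.2 CPM in AL against 66.6, 82.6 and 110 CPM in CR. Rpl8 (ENSRNOG00000032635) had 36.7, 22.4 and 25.4 CPM in AL against 72.4, 82.2 and 82.1 CPM in CR. For these 3 genes, the log2 fold changes were 2.00 (SE 0.289, adjusted p = 0.00202), 1.62 (0.231, 0.00202) and 1.46 (0.206, 0.00199). Every CR pool lay above every AL pool, as for nearly all genes called higher. Among the other Rpl8 identifiers, ENSRNOG00000048456 rose by 1.07, and ENSRNOG00000048523 did not pass (0.945, adjusted p = 0.0809 by edgeR). RPS7 (ENSRNOG00000027694), Rpl27a and Rpl34 (ENSRNOG00000016387) rose by 1.20, 1.27 and 1.17. The exception was Rplp1, of the acidic stalk of the large subunit, whose identifier ENSRNOG00000013874 had 653, 543 and 677 CPM in AL and 451, 355 and 349 CPM in CR. This was a fall by 0.72 on the log2 scale (SE 0.175, adjusted p = 0.0401). It lost its call in every fit that left out 1 pool. The other Rplp1 identifier, ENSRNOG00000011955, had a mean of 658.8 CPM in AL and 447.2 CPM in CR. It did not pass (log2 fold change −0.576, adjusted p = 0.0884 by edgeR). Both identifiers count in the summed level of the list.

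Messenger RNAs of ribosomal proteins are known for a run of pyrimidines that begins at the start of transcription with a C, the 5′ terminal oligopyrimidine tract, which ties their translation to nutrient signalling. Promoters of the rat RefSeq genes (build GRCr8) were matched by symbol, and 20 of the ribosomal protein genes called higher had one. A C followed by at least 4 pyrimidines, beginning within 5 bases of the annotated start, stood in 14 of the 20 (70.0%), against 17% of all 27457 promoters. The tract is a trait of the whole family. Its share in ribosomal protein genes that were not called was not computed, so these shares do not bear on the calls. The 4 called ribosomal protein genes with the smallest p and a promoter entry are shown because they lead the group, from 50 bases before to 40 bases after the start, with the tract in capitals. Rpl38 lay at chr10:100200385-100200474 (plus strand), Rpl35 at chr3:43165882-43165971, Rps7 at chr6:50999406-50999495 and Rps26 at chr7:1643365-1643454 (all 3 minus strand).
Rpl38: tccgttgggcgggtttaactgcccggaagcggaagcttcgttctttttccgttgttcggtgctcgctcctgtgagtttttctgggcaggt
Rpl35: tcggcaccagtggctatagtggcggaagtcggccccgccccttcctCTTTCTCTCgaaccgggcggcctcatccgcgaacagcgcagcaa
Rps7: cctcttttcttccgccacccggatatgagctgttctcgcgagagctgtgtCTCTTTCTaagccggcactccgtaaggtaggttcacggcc
Rps26: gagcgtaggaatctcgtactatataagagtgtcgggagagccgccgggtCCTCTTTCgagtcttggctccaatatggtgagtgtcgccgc
Rpl38 had no tract by this definition, but the letters ctttttcc run up to its annotated start and begin more than 5 bases before it. The pyrimidine run of Rpl35 also begins more than 5 bases before the start. It counted because a C within 5 bases is followed by enough pyrimidines, and the capitals mark it only from that C. The promoter was matched by symbol, so it need not belong to the RPL38 identifier with the smallest p. The presence of these letters is a description of the sequence, and the counts measure transcript level, not translation.

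Nuclear genes of oxidative phosphorylation were higher in CR as well. Of 38 identifiers tested for 37 of 73 symbols, 18 (47.4%) rose and none fell (edgeR; 29 had an unadjusted p under 0.05), with a median log2 fold change of 0.77. All complexes with more than 1 identifier were among them. In complex I, which takes electrons from NADH, 6 of 17 rose. In complex III 3 of 6 rose, in complex IV (cytochrome c oxidase) 6 of 9, and in ATP synthase 3 of 5. The 1 identifier of complex II, Sdhb, had a log2 fold change of 0.30 and did not pass (adjusted p = 0.474). The summed level was 1790, 1700 and 1850 CPM in AL and 2730, 3420 and 3320 CPM in CR, 1.77 times as high on average (exact permutation test, p = 0.1). The count of 18 was 11 without AL pool 2, 8 without CR pool 12 and 0 without both.

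Cox5b, a subunit of complex IV, had 65.1, 47.6 and 58.6 CPM in the AL pools and 141, 225 and 177 CPM in the CR pools. This was a log2 fold change of 1.65 (SE 0.199, adjusted p = 0.000748), with the smallest p of the list. Cox6a1, of the same complex, was at 111, 108 and 86.4 CPM in AL and 210.0, 229 and 247 CPM in CR (1.15, SE 0.169). Atp5j2, of ATP synthase, was nearly constant within AL, at 43.1, 41.2 and 41.1 CPM, and was at 92.8, 112 and 94.8 CPM in CR (1.24, SE 0.173). Ndufa3, of complex I, rose from 15.9, 11.2 and 12.5 to 34.7, 40.3 and 42.5 CPM (1.54, SE 0.228). Pools of the 2 diets did not overlap for any of these 4 genes, as for nearly all called genes. Members that did not pass included Cox5a (0.10, adjusted p = 0.897) and Atp5c1 (−0.32, adjusted p = 0.603).

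In the promoters of 14 of the called subunits, the letters AAGATGGC (the core that YY1 binds, both strands searched) were present in 6 (42.9%), against 3.44% of all promoters. The letters CCGGAAGT, bound by GABPA and related ETS factors, were present in 3 (21.4%), against 4.01%, and GCGCATGC, bound by NRF1, in 2 (14.3%), against 2.66%. These motifs, like the pyrimidine tract, were chosen after the calls were known. Their shares in subunits that were not called were not computed, so they do not bear on the calls. AAGATGGC contains ATG, and in the promoters of Atp5mf (the current symbol of Atp5j2) and Ndufa3 it lay after the start of transcription. The 3 called subunits with the smallest p and a promoter are shown from 50 bases before to 50 bases after the start, with these letters in capitals. Cox5b is chr9:46417787-46417886 and Atp5mf chr12:14535385-14535484 (plus strand), and Ndufa3 is chr1:74515509-74515608 (minus strand), in GRCr8.
Cox5b: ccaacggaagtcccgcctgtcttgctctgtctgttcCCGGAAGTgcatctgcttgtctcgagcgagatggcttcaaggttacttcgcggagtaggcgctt
Atp5mf: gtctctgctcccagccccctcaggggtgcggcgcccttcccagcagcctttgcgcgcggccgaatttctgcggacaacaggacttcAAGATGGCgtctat
Ndufa3: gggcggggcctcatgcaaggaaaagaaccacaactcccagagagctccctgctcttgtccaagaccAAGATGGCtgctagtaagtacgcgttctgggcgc
Stress and clock elements were also counted in the 47 promoters of all called members of the lists. Their shares in members that were not called were not computed, so they do not bear on the calls either. GAANNTTC or TTCNNGAA (heat shock element) was in 10.6% against 15.4% of all promoters, CACGTG (E-box) in 2.13% against 6.65%, and TGACGTCA (cAMP response element) in 2.13% against 1.91%. TTATGNAA (D-box) was in 0 against 3.54%, and the glucocorticoid response element in 0 against 0.422%. The median GC content of these 47 promoters was 58.0%, against 52.3% for all promoters. For promoters of all named genes it was 58.3% in those called higher and 65.5% in those called lower.

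**Figure D2:**
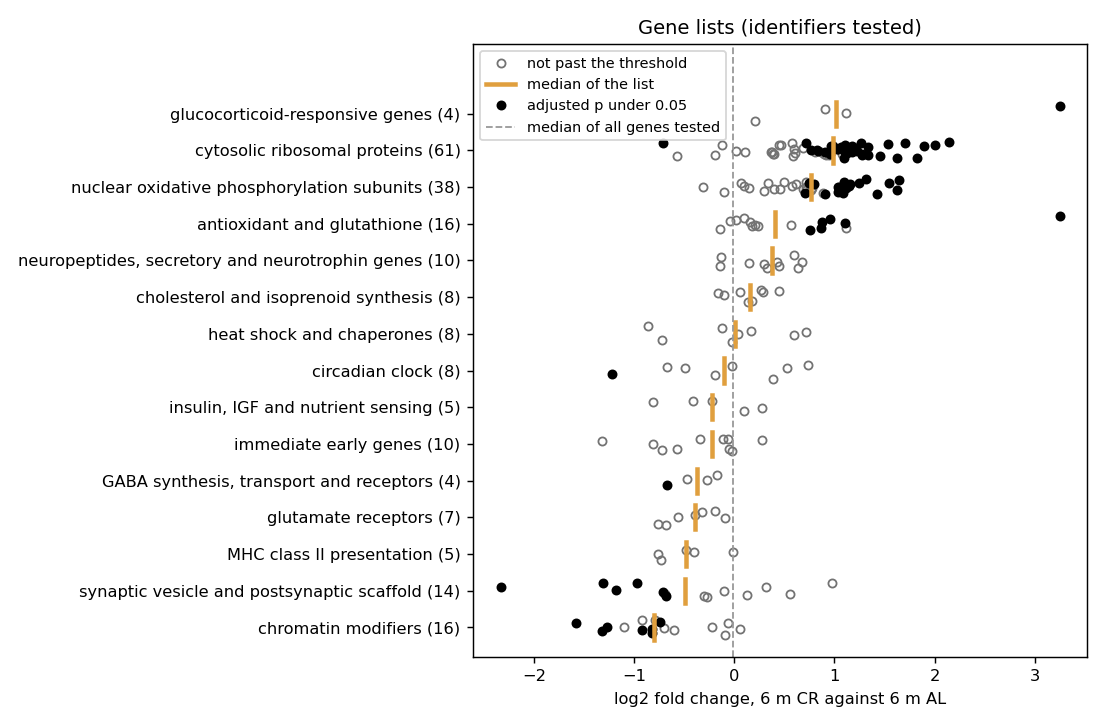
Log2 fold change of 6 m CR against 6 m AL (x axis) for each identifier of the gene lists with at least 4 identifiers tested (rows, number tested in brackets). Filled points passed an adjusted p of 0.05, and the bar is the median of the list, 0.99 for ribosomal proteins and −0.81 for chromatin modifiers.

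Antioxidant and glutathione genes gave a smaller group of calls in the same direction. Of 16 identifiers 6 rose and none fell (median 0.40). Prdx5, a peroxiredoxin that removes peroxides, was at 35.3, 40.8 and 31.8 CPM in AL and at 74.6, 78.9 and 80.5 CPM in CR (log2 fold change 1.10, SE 0.181, adjusted p = 0.00362). Sod1, the cytosolic superoxide dismutase, had 88.0, 98.0 and 93.1 CPM in AL and 166, 187 and 194 CPM in CR (0.96, SE 0.162, adjusted p = 0.00487). The pools were fully apart for both, as for nearly all called genes. Mt3, a metal-binding metallothionein of brain, rose by 0.87, and the glutathione transferases Gstp1 and Gstm1 by 0.88 and 0.76. MT1, a metallothionein that also stood in the list of glucocorticoid-responsive genes, was at 0.237, 0 and 2.12 CPM in AL and at 7.61, 6.51 and 10.6 CPM in CR (adjusted p = 0.0208), from few reads. Prdx5 passed in all 6 fits that left out 1 pool and Sod1 in 5, while the other 4 passed in 2 or 3 of them. The transferases Gsta1 (0.21, adjusted p = 0.705) and Gstt3 (0.17, adjusted p = 0.83) and the thioredoxin genes Txndc17 (0.57, adjusted p = 0.485), Txnip (0.09, adjusted p = 0.916) and Txnrd1 (−0.04, adjusted p = 0.96) did not pass.

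Several other genes were higher in CR and belonged to none of these 3 lists. Pcp4, which regulates calmodulin, was at 62.9, 45.2 and 73.7 CPM in AL and at 215, 177 and 167 CPM in CR (log2 fold change 1.60, SE 0.195, adjusted p = 0.000748). Resp18, of endocrine secretory granules, was at 27.9, 18.7 and 13.5 CPM in AL and at 81.9, 49.8 and 82.5 CPM in CR (1.80, SE 0.262). Ptgds, the synthase of prostaglandin D2 that is abundant in meninges and choroid plexus, was at 181, 207 and 133 CPM in AL and at 460, 388 and 391 CPM in CR (1.24, SE 0.184). Slc2a1, the glucose transporter of the blood-brain barrier, had 61, 46.6 and 48.0 CPM in AL and 112, 115 and 87.9 CPM in CR (1.0, SE 0.183, adjusted p = 0.00756). Each of these 4 genes had its lowest CR pool above its highest AL pool, as nearly all genes called higher did. The locus RGD1560186, without a gene name, rose from 2.13, 4.08 and 5.04 to 16.1, 20.7 and 19.6 CPM.

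**Figure D3:**
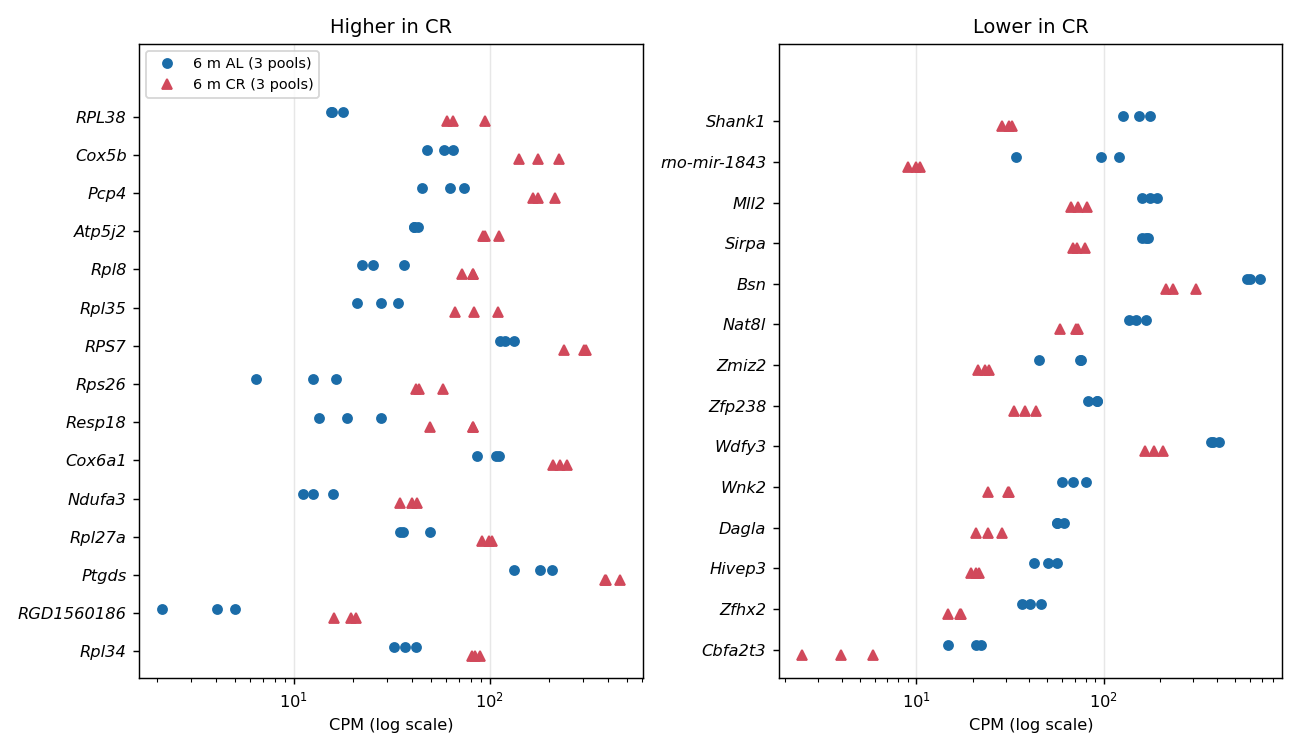
CPM on a log axis in each pool of 6 m AL (circles) and 6 m CR (triangles) for 15 named genes higher and 14 lower in CR, among those with the smallest p. The genes were picked to have AL and CR pools that do not overlap. Shank1 runs from 126 to 177 CPM in AL and from 28.6 to 32.3 CPM in CR.

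The gene with the smallest p of all was Shank1 (ENSRNOG00000019207), which was lower in CR. Its level was 177, 154 and 126 CPM in the AL pools and 28.6, 31.1 and 32.3 CPM in the CR pools. The AL pools spread more than the CR pools, and the groups were far apart. The log2 fold change was −2.33 (SE 0.186, adjusted p = 9.36e-06), a 5.03-fold lower level, and it stayed between −2.42 and −2.19 when any 1 pool was left out.

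Shank1 was 1 of 14 members of the list of synaptic vesicle and postsynaptic scaffold genes, of which 6 fell and none rose (median −0.50; summed level 2480, 2270 and 2240 CPM in AL and 1390, 1840 and 1430 CPM in CR). Shank3, its relative at the same synapses, had 82.6, 60.9 and 49.8 CPM in AL against 33.2, 29.1 and 23.7 CPM in CR (−1.18, SE 0.217, adjusted p = 0.00756). Bsn, which organises the presynaptic active zone, had 678, 606 and 583 CPM in AL against 234, 311 and 214 CPM in CR (−1.31, SE 0.18, adjusted p = 0.00183). Pools were separate for Shank1, Shank3 and Bsn, as for nearly all called genes. The count of 6 genes that fell was 3 without CR pool 10, 2 without CR pool 12 and 0 without both pools 2 and 12. Not all of the list moved this way: Rab3b had a log2 fold change of 0.98 (adjusted p = 0.0574), Napb of 0.31 (adjusted p = 0.473), Stx1a of −0.28 (adjusted p = 0.731) and Homer2 of −0.69 (adjusted p = 0.348).

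Chromatin modifiers had the lowest median of the 16 functional lists with a member. Of 16 identifiers 7 (43.8%) fell and none rose, 15 had a negative log2 fold change, and the median was −0.81. The summed level was 1130, 1120 and 1060 CPM in AL and 715, 681 and 700 CPM in CR, 0.633 times as high (exact permutation test, p = 0.1). Mll2 (now Kmt2d), a histone H3 lysine methyltransferase, was at 192, 176 and 159 CPM in AL and at 81.2, 67.1 and 73.1 CPM in CR (−1.27, SE 0.166, adjusted p = 0.00148). The histone demethylase gene Kdm6b fell by 1.58, the deacetylase gene Hdac5 by 0.93, the acetyltransferase genes Crebbp and Kat6a by 0.82 and 0.74, and the remodeller gene Chd5 by 0.82. Enzymes that add and enzymes that remove marks were thus among the calls. Mll2 passed in all 6 fits that left out 1 pool, and these other 5 in 1 to 3 of them. Dot1l (−1.10, adjusted p = 0.0821), Tet3 (−0.79, adjusted p = 0.103) and Morf4l1 (0.05, adjusted p = 0.955) did not pass.

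Further genes lower in CR belonged to no single list. Nat8l, which makes N-acetylaspartate in neurons, was at 168, 149 and 136 CPM in AL and at 70.9, 73.0 and 58.4 CPM in CR (log2 fold change −1.18, SE 0.171, adjusted p = 0.00202). Dagla, which makes the endocannabinoid 2-arachidonoylglycerol, was at 56.3, 61.2 and 56.5 CPM in AL and at 28.6, 24.2 and 20.8 CPM in CR (−1.25, SE 0.196). Sirpa, a membrane receptor for CD47, was at 160, 173 and 168 CPM in AL and at 71.8, 78.9 and 68.2 CPM in CR (−1.21, SE 0.162). The highest CR pool was below the lowest AL pool for each of these 3 genes, as for nearly all genes called lower. The kinase gene Wnk2 fell by 1.28 and the autophagy adaptor gene Wdfy3 by 1.08. Other leading genes that fell were Zmiz2 (−1.53), Zfp238 (−1.22), Hivep3 (−1.30), Zfhx2 (−1.34) and Cbfa2t3 (−2.16).

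The largest fall of a named gene was at rno-mir-1843 (ENSRNOG00000045015), with 33.8, 96.6 and 121 CPM in AL and 10.0, 10.4 and 8.99 CPM in CR. Pools of CR were close together, and the lowest AL pool was AL pool 1. Its log2 fold change was −3.10 (SE 0.364, adjusted p = 0.000664). RefSeq lists this name as a synonym of Scarna3, a small Cajal body RNA, at chr6:104955347-104955436 of GRCr8 (minus strand), and annotates 2 mature miRNAs in it. They are printed because the name stands for them, with the seed in capitals.
rno-miR-1843a-5p: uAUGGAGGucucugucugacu
rno-miR-1843a-3p: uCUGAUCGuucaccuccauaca
The libraries were made from total RNA and counted over the whole locus, so the values do not tell a mature miRNA from the small Cajal body RNA.

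Lists of stress, activity and metabolic genes gave almost no calls. Of 10 immediate early genes, which report recent neuronal activity, none passed (edgeR; 3 had an unadjusted p under 0.05) and 9 had a negative log2 fold change. Egr1 was at 206, 228 and 190 CPM in AL and at 98.9, 167 and 116 CPM in CR, with separate pools (−0.72, SE 0.194, adjusted p = 0.0629). Egr3 had a log2 fold change of −1.32 (adjusted p = 0.0787) and Fosb of −0.81 (adjusted p = 0.149). Of 8 clock genes 1 fell, Hlf, a D-box transcription factor, from 27.9, 19 and 20.4 to 11.6, 8.54 and 9.40 CPM (−1.22, SE 0.269, adjusted p = 0.0227). It passed in 2 of the 6 fits that left out 1 pool. Cry2 (−0.49, adjusted p = 0.155), Nr1d1 (−0.67, adjusted p = 0.21) and Dbp (0.73, adjusted p = 0.261) did not pass.

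Of 8 heat shock and chaperone identifiers none passed (2 at an unadjusted p under 0.05), and 1 identifier of Hspa1b, the inducible Hsp70 (ENSRNOG00000045654), ran from 10.4 to 70.4 CPM within AL alone. None of 5 genes of insulin and nutrient sensing passed (1 at an unadjusted p under 0.05), with Irs1 at −0.81 (adjusted p = 0.116). No call was made among 8 genes of cholesterol and isoprenoid synthesis (1), 2 of fatty acid oxidation (0), 10 of neuropeptides and secretion (2) and 5 of MHC class II presentation (2), where the number in brackets is the count at an unadjusted p under 0.05 by edgeR. All 7 glutamate receptor genes had a negative log2 fold change (median −0.39), and none passed (3 at an unadjusted p under 0.05). Grik4 (−0.76, adjusted p = 0.181) and Grin2c (−0.69, adjusted p = 0.226) were the lowest of the 7. Of 4 glucocorticoid-responsive identifiers 1 rose, MT1. All 4 had a positive log2 fold change, and 3 had an unadjusted p under 0.05 by edgeR. Their median of 1.01 was the highest of the functional lists. The sum was 23.7, 36.4 and 45.3 CPM in AL and 52.3, 63.7 and 77.6 CPM in CR. Few symbols could be matched: 4 of 21 in this list, 5 of 38 for insulin and nutrient sensing, and 2 of 25 for fatty acid oxidation. The list of mitochondrially encoded subunits had no matched identifier.

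Markers of cell types and regions were few, because only 40 identifiers of 13 of the 14 lists could be named, and choroid plexus had none. The cortical excitatory marker Nrgn was present in every pool, at 68.2 to 199 CPM. Of the 40 identifiers 1 passed, Slc2a1, which stood in the list of endothelium and pericytes. That list of 2 genes was at 81.6, 59.5 and 56.2 CPM in AL and at 134, 142 and 103 CPM in CR. Microglial markers, 6 identifiers, were at 206, 207 and 174 CPM in AL and at 243, 218 and 288 CPM in CR. The sums of these 2 lists did not overlap between diets (exact permutation test, p = 0.1; adjusted p = 0.52 over 13 lists), and all other lists did. Oligodendrocyte markers summed to 503, 384 and 391 CPM in AL and 775, 469 and 452 CPM in CR, and astrocyte markers to 1280, 1350 and 1530 CPM in AL and 1290, 892 and 1050 CPM in CR. The part of these sums in the calls was not tested.

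The same genes were then read at the other ages, in libraries that the 6-month contrast did not use. Those AL groups also held pools with high cerebellar markers. The sum was 456 and 1900 CPM in 12 m AL pools 5 and 6, and 1320 and 1290 CPM in 28 m AL pools 7 and 9. It was at most 142 CPM in the 30 libraries of other diets. The part of this difference in the results at other ages was not tested. At 12 months, 363 of the 379 genes (95.8%) had the same sign in CR against AL, compared with 61.5% of all genes tested. Without AL pool 5 of that age, which had only 494091 reads on genes, the count was 359 (94.7%, against 61.1%). At 28 months it was 352 (92.9%, against 61.2%). For rats fed freely on a diet with α-lipoic acid (AL+LA), against AL at 12 months, it was also 363 (95.8%, against 61.9%). The contrasts of 12 m CR and 12 m AL+LA use the same AL libraries and are not independent of each other. In each contrast named here, every AL library had a lower share of unaligned reads than every library of the other diet. That share and the diet thus cannot be told apart at these ages either. The 182 genes higher in CR had a median log2 fold change of 1.13 at 6 months, where they were chosen, of 0.62 in 12 m CR, 0.79 in 12 m AL+LA and 0.73 in 28 m CR. The 197 lower genes had medians of −0.95, −0.57, −0.66 and −0.32. The genes called at 6 months and also called in the same direction numbered 98 with 12 m CR (25.9% of the 379, 26.3% of the 372 called there), 154 with 12 m AL+LA (40.6%, and 28.2% of 547) and 124 with 28 m CR (32.7%, and 17.4% of 711).

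**Figure D4:**
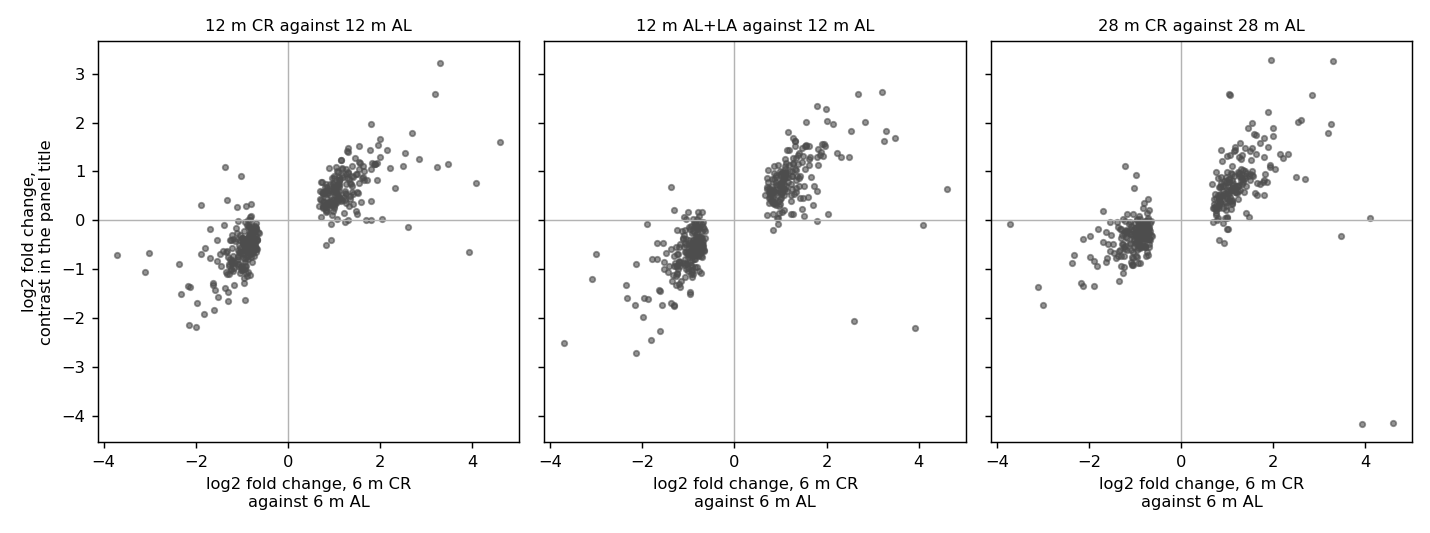
Log2 fold change at 6 months (x axis, CR against AL) of the 379 called genes, and their log2 fold change in 3 contrasts of older rats (y axis, named above each panel). Points in the upper right and lower left have the same sign in both contrasts, which holds for 363, 363 and 352 genes from left to right.

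A difference in the effect of CR between ages was tested as an interaction over 12 libraries. Between 6 and 12 months no gene passed (0%; edgeR quasi-likelihood test; 1054 genes at an unadjusted p under 0.05, and 4 past the threshold when all 13 groups were fitted together). The count was 4 without 6 m AL pool 1, 2 without 12 m AL pool 4 and 15 without 6 m CR pool 11. Between 6 and 28 months 2 genes passed (0.0116%; 1424 at an unadjusted p under 0.05), and neither was called at 6 months. Their number was 0 without 6 m AL pool 1 or 2, 6 m CR pool 11, 28 m AL pool 7 or 9, or 28 m CR pool 17 or 18. It was 1 without 28 m CR pool 16, 4 without 6 m AL pool 3, 9 without 28 m AL pool 8 and 19 without 6 m CR pool 12. Gfap, the intermediate filament of astrocytes, was at 384 ± 37.8 CPM in 6 m AL and 318 ± 83.7 in 6 m CR (SD, n = 3 pools), and at 171 ± 31.3 in 28 m AL and 523 ± 157 in 28 m CR. Dbndd2 was at 68.1 ± 9.91 and 70.1 ± 8.5 CPM at 6 months and at 35 ± 3.37 and 92.6 ± 6.82 CPM at 28 months. For both genes 28 m AL had the lowest mean of the 13 groups. At 12 months Gfap was at 633 ± 62.9 CPM in AL and 263 ± 46.5 in CR, the opposite direction to 28 months. Dbndd2 was then at 61.6 ± 18.1 CPM in AL and 81.6 ± 13.4 in CR. Shank1, for comparison, was at 106 ± 31 CPM in 12 m AL and 37.8 ± 13.1 in 12 m CR, and at 56.5 ± 25.2 in 28 m AL and 34 ± 8.86 in 28 m CR.

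The same sums were also read in all 13 groups of the series, where the libraries of other diets include the 6 m CR pools. The summed level of oxidative phosphorylation subunits ran from 1700 to 2650 CPM in the 9 AL libraries of the 3 ages and from 2730 to 4060 CPM in the 30 libraries of all other diets, of which the lowest was 6 m CR pool 10. For chromatin modifiers the ranges were 877 to 1130 and 623 to 812 CPM. For antioxidant genes they were 632 to 723 and 804 to 1180 CPM, for GABA genes 645 to 826 and 496 to 582 CPM, and for cholesterol synthesis 595 to 847 and 854 to 1140 CPM. The ranges of these 5 lists did not overlap. Those of ribosomal proteins did (3190 to 4640 and 4200 to 6220 CPM), and so did those of synaptic genes (1320 to 2480 and 1390 to 2150 CPM). The synaptic sum was lower in CR at 6 months, but at 28 months it was 1520 ± 252 CPM in AL and 1710 ± 243 CPM in CR (SD, n = 3 pools), and the median log2 fold change of the list was 0.32 there. Groups other than AL included diets in which rats ate freely, such as AL+LA. The share of reads that did not align ran from 27.5% to 36.1% in the 9 AL libraries and from 34.1% to 43.2% in the other 30, with an overlap. At 6 months the share did not overlap between diets, so it and the diet cannot be told apart. The same held at 12 months, with 30.4% to 36.1% in AL, 41.1% to 43.2% in CR and 39.3% to 41.0% in AL+LA. It also held at 28 months, with 27.5% to 33.2% in AL and 38.1% to 40.7% in CR.

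**Figure D5:**
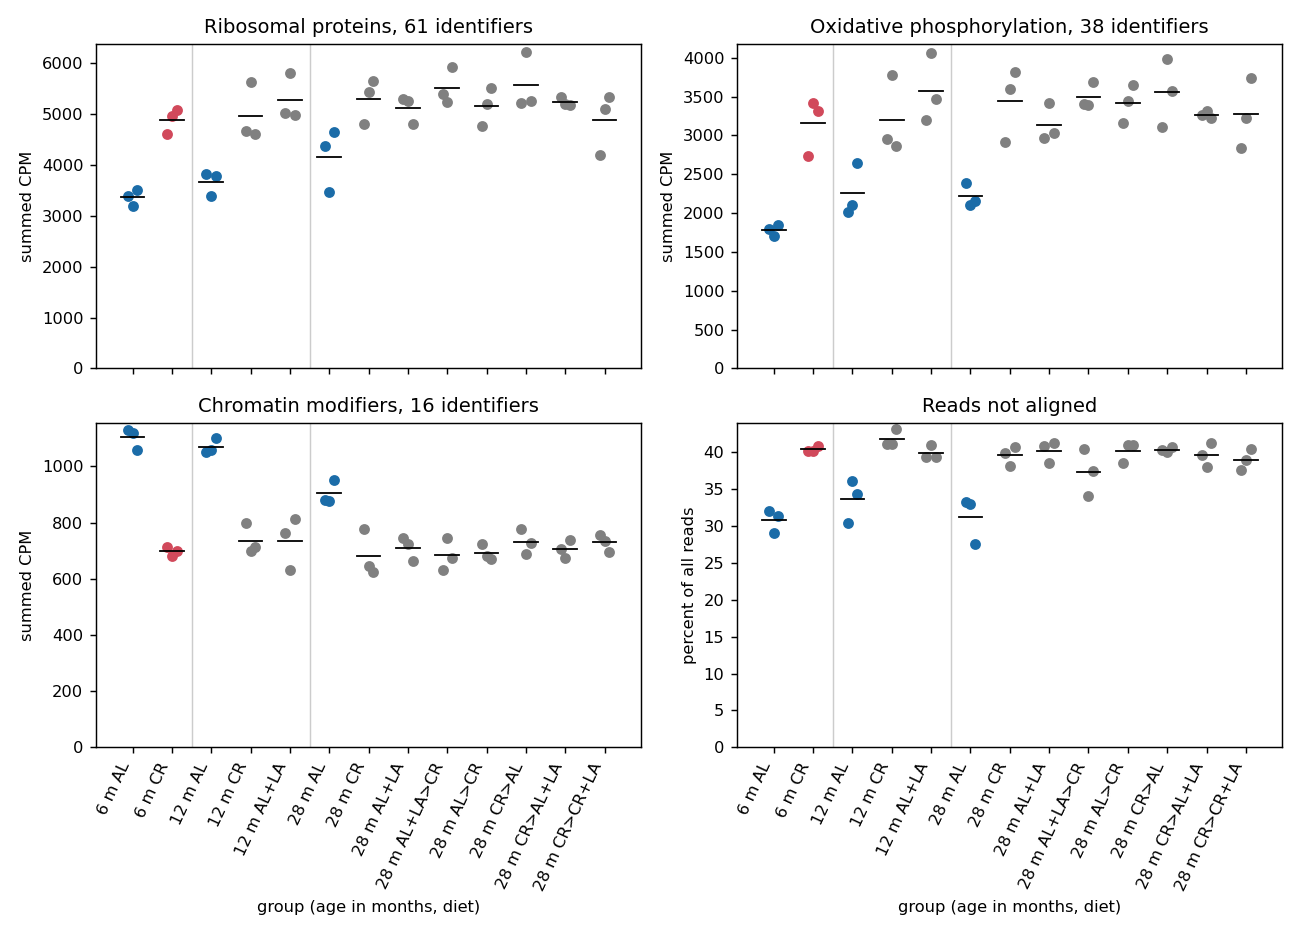
Summed CPM of 3 gene lists and the percent of reads not aligned (y axes, from 0) in each library (points) with the group mean (line) for all 13 groups. AL groups are blue, 6 m CR is red and other diets are grey. The 3 AL groups lie below all others for oxidative phosphorylation (at most 2650 CPM) and above all others for chromatin modifiers (at least 877 CPM).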

How the data were processed

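Total RNA of rat cortex (2 rats per pool) was ribodepleted and sequenced on a SOLiD instrument. The authors mapped reads with Bowtie to genome build rn5, dropped reads with several matches, and counted them per Ensembl gene with HTSeq. The deposited values are raw counts without normalization. Dropping such reads lowers counts of genes with near-identical copies. The last 5 lines, which name no gene, were left out of library sizes and tests (no gene took 80.9% to 82.9% of aligned reads). No strand setting is given in the sources used here.

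Genes with at least 1 CPM in at least 3 of the 39 libraries (17230 of 26123) were tested with edgeR 4.0.16 in R 4.3.3 (TMM, quasi-likelihood test, only the 6 libraries, Benjamini-Hochberg adjustment over all genes, threshold 0.05). The standard error is the log2 fold change divided by the square root of F. Printed CPM are scaled by TMM over all 39 libraries. P-values of edgeR rest on the spread between 3 pools per group, with the estimate for each gene drawn towards that of all genes tested. Single values per library were compared by exact two-sided permutation tests of means (SciPy 1.17.1). The fit was tested on simulated data.

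Symbols came from tables of the study that pair them with identifiers (1673), of which 1623 matched RefSeq. Members and lists were chosen with earlier results of these data known. Named were the 15 genes per direction with a symbol, separate pools and the smallest p, list members called or otherwise the 4 with the smallest p, genes the study names, and at most 2 genes without a symbol per direction. Alternatives were DESeq2 1.42.0, its size factors, edgeR's exact test, TMM without Rn28s and mitochondrial transfer RNA genes (those that could be named), other filters on low counts, a common fit of all 13 groups, and the removal of each pool in turn. Leaving out pools 2 and 12 together, leaving out pool 5 of 12 m AL, and the YY1, GABPA, NRF1 and pyrimidine motifs were added after seeing the data. A few called genes are not reported here.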

Additional observations from a re-analysis of the deposited data

Results flagged for a closer look

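The effect of CR on 2 genes differed between 6 and 28 months by the interaction test of edgeR over 12 libraries. For Gfap the log2 effect at 6 months minus that at 28 months was −1.88 (standard error 0.292, adjusted p = 0.0456). For Dbndd2 it was −1.36 (standard error 0.223, adjusted p = 0.0484). Both adjusted p-values lie just under the threshold. For both genes 28 m AL had the lowest mean of all groups of the series. Fits that left out 1 pool gave between 0 and 19 genes for this test. High cerebellar markers were present in 28 m AL pools 7 and 9 (1320 and 1290 CPM), and their part in these differences was not tested.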

How the results depend on the processing

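The count of 379 genes was 610 with edgeR's exact test (289 higher, 321 lower), 791 with no filter on low counts (339, 452) and 1375 with all 13 groups in one fit (691, 684). Leaving out each pool gave 67 to 573 genes (45 to 263 higher, 22 to 310 lower), 12 to 39 ribosomal proteins called higher, 8 to 22 oxidative phosphorylation subunits called higher and 2 to 6 synaptic genes called lower. Without pools 2 and 12, which left 2 pools per group, all of these were 0. The difference from 12 months was called for 4 genes with all 13 groups in one fit and for 0 to 15 when a pool was left out, and that from 28 months for 36 and for 0 to 19. DESeq2 called 543 genes, 369 of them among the 379, and its size factors in edgeR gave 378 genes. The cause of these differences was not tested. No named gene that was called changed sign under an alternative that gave it a value. Among alternatives that kept all 6 pools, Rps21 lost its call with DESeq2, and Rplp1 with a filter on the 6 libraries alone and with all 13 groups in one fit. MT1, RGD1560186, Cbfa2t3 and Kdm6b were not tested under the filter of 10 counts in each library, and MT1 had no adjusted p with DESeq2. No paired analysis was possible because the pool numbers of the groups are all different. Depth of 2661799 to 4270620 reads on genes limits what genes of a few CPM can show.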
